A study of Tursiops truncatus with 8 samples.

Results

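AQP5, MUC1, CC10 and PDPN encode proteins of epithelial surfaces and secretions, and their RNA was measured in cultured skin of a bottlenose dolphin (Tursiops truncatus). All probes named for these 4 genes on the array were taken, whatever their signal: AQP5-1 and AQP5-2, MUC1-1 and MUC1-2, CC10-1 and CC10-2, and PDPN-1. These were 7 of 24418 probes and 14 of 43803 spots, since each probe was printed on 2 spots. They made up 7 of the 20 probes and 4 of the 13 genes that the array names by gene. The other probes are named for assembled contigs, single reads or GI numbers.

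AQP5 (aquaporin 5) is a water channel of the apical membrane of secretory epithelia such as salivary, lacrimal, sweat and airway glands. MUC1 is a transmembrane mucin that coats the apical surface of glandular epithelia. PDPN (podoplanin) is a mucin-like surface glycoprotein of lymphatic endothelium, alveolar type I cells and basal keratinocytes, and CC10 (club cell secretory protein) is a small secretoglobin released by non-ciliated cells of the airways. Cetacean skin has a thick stratified epidermis and lacks sweat and sebaceous glands.

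Slices about 2 mm thick, with epidermis and dermis, were cut from the skin of a stranded wild dolphin and kept in culture for 24 h at 24 to 28 °C. There were 8 conditions with 1 array each: medium alone, methanol (the vehicle of perfluorooctanoic acid, PFOA), 2 PFOA cultures, ethanol (the vehicle of bisphenol A, BPA) and 3 BPA cultures. PFOA is a surfactant used to make fluoropolymers and BPA a plastics monomer with oestrogen-like activity. For the PFOA samples title and description give opposite doses, so they go by the number in the title, PFOA titled 1 and PFOA titled 0.1, with no order of dose. The BPA samples are named 0.1, 1 and 100 from their titles, without a unit, because titles and protocol differ in the unit and the protocol does not list the 100. Nothing in the labels ties the slices to separate animals, so p-values reflect only how far slices and arrays scattered, and that scatter may be technical. In the comparisons with a vehicle the scatter was the spread between arrays of the same compound, which had different doses. A dose effect would therefore count as scatter, and the SD of a compound is over doses and not over replicates.

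Slide 1 carried medium, methanol and both PFOA arrays, and slide 2 carried ethanol with the BPA arrays, so a compound and its vehicle always shared a slide. The processed signal has the background subtracted, and its 75th percentile was 387 to 704 per array. Each array had 145 to 150 negative control spots, with medians of 1.32 to 1.95 and highest values of 1.67 to 3.92. Between 73.0% and 79.4% of spots were well above background, a flag that the scanner software sets for each spot. Duplicate spots of a probe had a log2 SD of 0.145 to 0.229, except on PFOA titled 0.1, where it was 0.381. Of 38 markers of skin and airway cell types that were looked for, 6 are named on the array, none of them for keratinocytes, fibroblasts, melanocytes, immune cells or lymphatic endothelium. The 6 are CDH5, a marker of blood vessel endothelium, and 5 markers of airway and alveolar epithelium, and their levels are not given here. The labelled tissue could therefore not be checked against markers of keratinocytes, fibroblasts or melanocytes. Of a list of 33 water channels, mucins, secretoglobins and partners of podoplanin, none is named on the array by its listed symbol. That list holds SCGB1A1, the standard symbol of CC10 itself. As slices are bulk samples, fewer cells of a type and less RNA per cell cannot be told apart.

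Detection differed by gene. Both AQP5 probes and both MUC1 probes were well above background on all 8 arrays, CC10 was seen less completely, and for PDPN no array gave a signal well above background. A probe was called well above background on an array when at least 1 of its 2 spots carried the flag. Of all probes on the array, 69.9% met this on all 8 arrays and 15.1% on none. Among the 13 probes of other named genes, 5 met it on all 8 and 3 on none.

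AQP5-1 gave signals of 16.7 to 130 (median 51.6 over 16 spot readings) and AQP5-2 of 13.5 to 34.5 (median 19.4). All 32 AQP5 readings were well above background and above the highest negative control of their array. MUC1-2 ranged from 26.0 to 66.6 (median 45.7), with 16 of 16 readings well above background. MUC1-1 ranged from 9.05 to 24.4 (median 14.4), with 15 of 16 readings well above background, and the exception was spot 1 on PFOA titled 1. All 4 of these probes were thus measured in every culture condition, although the 75th percentile of each array lay far above their signals.

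CC10-2 was well above background on 7 of 8 arrays, with signals of 6.72 to 17.7 (median 9.44), and failed on PFOA titled 1. CC10-1 was well above background on 4 of 8 arrays, which were medium, BPA 0.1, BPA 1 and BPA 100, and on BPA 1 through 1 of its spots. Its signals ran from 5.11 to 51.2 (median 8.57). Every CC10 reading nevertheless exceeded the highest negative control of its array, and all 32 carried the scanner's weaker flag of a positive and significant signal. CC10 signals that missed the stronger flag thus still lay above the negative controls. The lowest signal flagged as well above background on an array was 4.36 to 8.20.

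PDPN-1 gave signals of 1.27 to 5.91 (median 2.56), with 0 of 16 readings well above background. Of these, 9 of 16 were positive and significant and 6 of 16 exceeded the highest negative control. Methanol was the single array on which both spots did so, with signals of 5.85 and 4.58 against a highest control of 2.45. The signals were 2.57 and 2.24 in medium, 1.95 and 1.96 on PFOA titled 1, 1.27 and 1.62 on PFOA titled 0.1, and 3.43 and 5.91 in ethanol. They were 3.39 and 1.53 on BPA 0.1, 3.84 and 2.54 on BPA 1, and 5.11 and 1.83 on BPA 100. On BPA 0.1, BPA 1 and BPA 100 spot 1 was above and spot 2 below the highest control, and in ethanol it was the reverse. On these arrays the spots did not give the same answer. No level or fold is given for PDPN, which was tested only in an alternative fit without a filter on dim probes. A probe that is not well above background does not show that the RNA was absent.

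**Figure D1:**
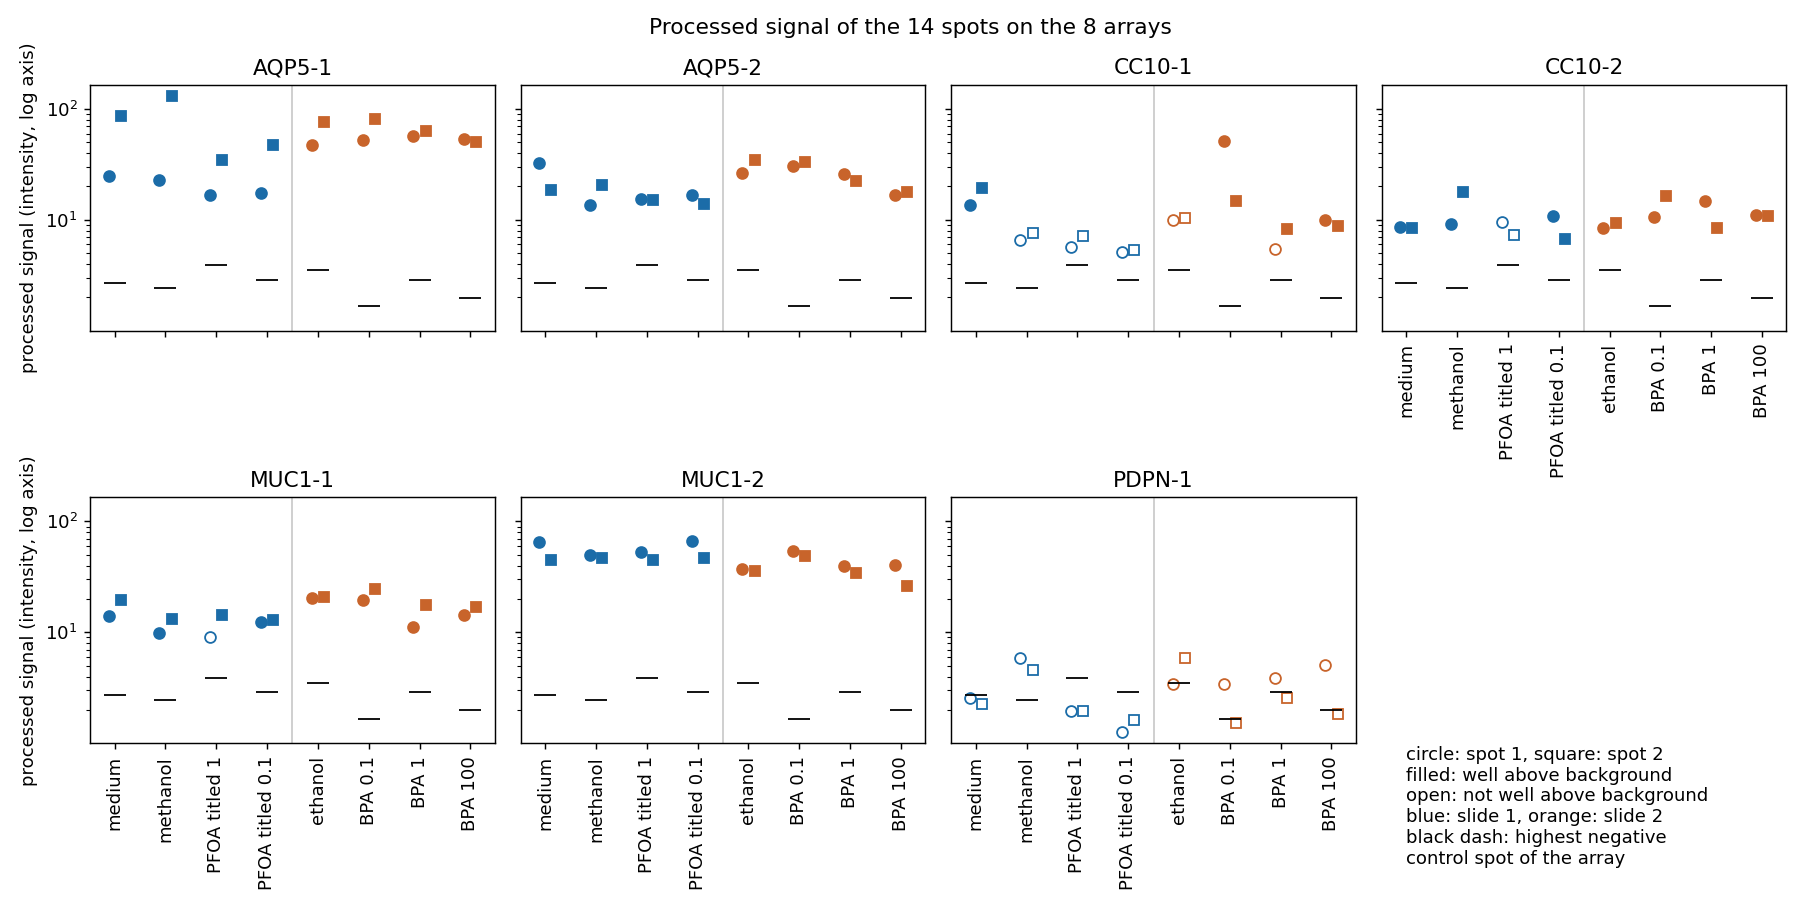
Processed signal (linear intensity on a log axis) of each of the 14 spots on the 8 arrays, 1 panel per probe; circles are spot 1 and squares spot 2, filled where well above background, and the black dash is the highest of the array's negative controls. AQP5 and MUC1 points are filled on every array except spot 1 of MUC1-1 on PFOA titled 1, while the 16 PDPN-1 points are open and between 1.27 and 5.91.

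Levels from here on are log2 of the signal minus the 75th percentile of the array, averaged over the 2 spots of a probe, so a negative level lies below that percentile. Levels were compared only within a probe. AQP5-1 stood at -3.75 in medium, -3.67 in methanol, -4.78 on PFOA titled 1, -3.80 on PFOA titled 0.1, -3.31 in ethanol, -3.43 on BPA 0.1, -3.13 on BPA 1 and -2.90 on BPA 100. AQP5-2 stood at -4.66 in medium, -5.39 in methanol, -5.42 on PFOA titled 1, -4.71 on PFOA titled 0.1, -4.30 in ethanol, -4.48 on BPA 0.1, -4.44 on BPA 1 and -4.49 on BPA 100. Both probes of the water channel were lowest on PFOA titled 1 and lower on every array of slide 1 than on any array of slide 2. The distance from lowest to highest array was 3.68-fold for AQP5-1 and 2.18-fold for AQP5-2.

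MUC1-1 stood at -5.24 in medium, -5.92 in methanol, -5.85 on PFOA titled 1, -4.97 on PFOA titled 0.1, -4.85 in ethanol, -5.02 on BPA 0.1, -5.23 on BPA 1 and -4.63 on BPA 100. MUC1-2 stood at -3.53 in medium, -3.86 in methanol, -3.75 on PFOA titled 1, -2.84 on PFOA titled 0.1, -4.03 in ethanol, -3.76 on BPA 0.1, -3.83 on BPA 1 and -3.57 on BPA 100. The mucin probes did not share an order over all arrays: MUC1-2 was highest on PFOA titled 0.1 and lowest in ethanol, whereas MUC1-1 was highest on BPA 100 and lowest in methanol.

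CC10-2 stood at -6.18 in medium, -5.78 in methanol, -6.30 on PFOA titled 1, -5.55 on PFOA titled 0.1, -6.06 in ethanol, -5.74 on BPA 0.1, -5.56 on BPA 1 and -5.14 on BPA 100. Of these, PFOA titled 1 was not well above background. CC10-1 was well above background at -5.27 in medium, -4.67 on BPA 0.1, -6.29 on BPA 1 and -5.37 on BPA 100. On its other arrays it read -6.63 in methanol, -6.69 on PFOA titled 1, -6.25 on PFOA titled 0.1 and -5.86 in ethanol without being well above background. The secretoglobin thus had 1 probe highest on BPA 100 and the other highest on BPA 0.1.

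The SD over the 8 arrays was 0.57 for AQP5-1, 0.43 for AQP5-2, 0.46 for MUC1-1, 0.36 for MUC1-2, 0.72 for CC10-1 and 0.38 for CC10-2. The median SD over the 17080 probes well above background on all arrays was 0.235, and 1.29% of them varied at least as much as AQP5-1 and 15.1% at least as much as MUC1-2. The SD between the 2 spots of a probe, pooled over arrays, was 0.917 for AQP5-1, 0.287 for AQP5-2, 0.301 for MUC1-1, 0.265 for MUC1-2, 0.501 for CC10-1 and 0.402 for CC10-2. When arrays were ordered by level, in each of these 6 probes only 1 of the 7 steps between neighbours exceeded that SD. For AQP5-1 it set PFOA titled 1 apart at the bottom, for AQP5-2 it parted methanol and PFOA titled 1 from the rest, and for MUC1-2 it set PFOA titled 0.1 apart at the top. For MUC1-1 it parted methanol and PFOA titled 1 from the rest, for CC10-1 it set BPA 0.1 apart and for CC10-2 BPA 100, both at the top. The other 6 steps of each probe were within that SD. It includes any constant gap between the 2 spot positions, which cancels when arrays are compared. Spot 2 was the brighter on 8 of 8 arrays for MUC1-1, 0 of 8 for MUC1-2 and 7 of 8 for AQP5-1. For such probes the SD is too wide a measure, so a step within it is not shown to be noise. The SD between duplicate spots is technical and lies within 1 array, so it leaves out the spread between cultures, which 1 array per condition does not show.

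PFOA titled 1 was the lowest array for 4 of the 6 tested probes, against 11.8% of all 19434 probes tested. The 4 include both CC10 probes, neither of which was well above background on that array. After quantile normalization it was the lowest for 1 of 6, and under normexp background correction also for 1 of 6, where methanol was the lowest for 4 of 6 (24.5% of all probes). BPA 100 was the highest for 3 of the 6, against 17.0% of all probes, and for 3 of 6 after quantile normalization. Under normexp it was the highest for 4 of 6, against 30.1% of all probes.

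**Figure D2:**
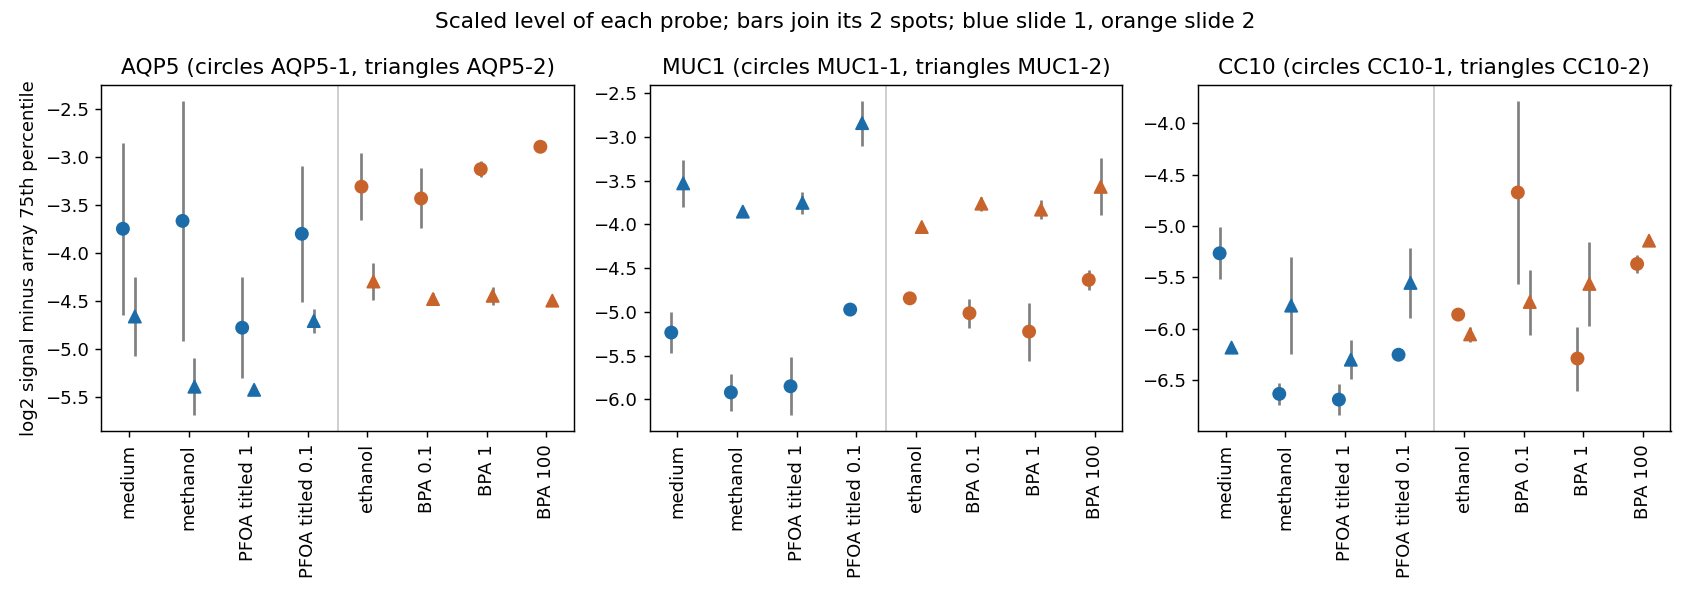
Level of each probe (log2 signal minus the array's 75th percentile) on the 8 arrays, with a bar joining its 2 spots; circles are the first and triangles the second probe of the gene, blue slide 1 and orange slide 2. AQP5-1 runs from -4.78 to -2.90 with long bars on slide 1, MUC1-2 peaks at -2.84 on PFOA titled 0.1, and the long CC10-1 bar is that of BPA 0.1.

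Spots of a probe carry the same sequence and were averaged, and for AQP5-1 they lay far apart on slide 1. Spot 1 read 24.8, 23.1, 16.7 and 17.6 in medium, methanol, PFOA titled 1 and PFOA titled 0.1, where spot 2 read 86.0, 130, 34.6 and 46.8. On slide 2, spot 1 read 46.9, 52.5, 56.8 and 53.4 in ethanol, BPA 0.1, BPA 1 and BPA 100, and spot 2 read 75.9, 80.9, 63.7 and 50.7. Spot 2 was brighter on 7 of 8 arrays, by a mean of 1.69 (log2) on slide 1 and 0.35 on slide 2. The largest gap, 5.65-fold in methanol, was reached by 3 of 14565 probes with 2 usable spots on that array, and the gap of 1.79 in medium by 0.137% of probes.

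Spot 1 of AQP5-1 lay in column 2 of the 85 columns of the array, near its edge, and spot 2 in column 17. Other probes with 1 spot in the outer 3 columns had a median difference between edge spot and other spot of -0.033 to -0.003 per array, and 0.112% to 2.61% of them had an edge spot lower by at least 1 log2 unit. The part of the position in the AQP5-1 gap was not tested. AQP5-2 had no gap of that size, its largest being 1.78-fold. CC10-1 had 1 such gap: on BPA 0.1 its spots read 51.2 and 14.8, a gap reached by 0.126% of probes, while on the other 7 arrays its spots lay at most 0.62 log2 units apart.

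PFOA was compared with methanol to ask whether these genes changed with the compound. None of the 6 probes tested passed. In limma, with the 2 PFOA arrays against the methanol array and Benjamini-Hochberg adjustment over 19434 probes, adjusted p was 0.987 to 0.995. Over all probes tested the percentage that passed was 0, and 4.35% had an unadjusted p under 0.05, which none of the 6 had. The 6 differences had a median of 0.24, with 4 higher and 2 lower, against a median of -0.01 and 49.2% higher over all probes.

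AQP5-1 was at -4.29 ± 0.69 (SD, n = 2) in PFOA and -3.67 in methanol, a difference of -0.62 ± 0.43 (SE, 95% interval -1.62 to 0.38). AQP5-2 differed by 0.33 ± 0.34 (-0.46 to 1.11), in the other direction. Both MUC1 probes had higher mean levels in PFOA than in methanol, MUC1-1 by 0.51 ± 0.42 (-0.46 to 1.48) and MUC1-2 by 0.56 ± 0.39 (-0.35 to 1.46). CC10-2 differed by -0.15 ± 0.39 (-1.07 to 0.76), with 1 of its 2 PFOA readings, that of PFOA titled 1, not well above background on either spot. CC10-1 had no reading well above background on these arrays. Each of these 5 intervals includes 0 and reaches beyond a 2-fold change on 1 side.

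The PFOA arrays differed from each other by more than most of these differences from methanol. On PFOA titled 0.1 all 4 probes of AQP5 and MUC1 were higher than on PFOA titled 1, by 0.71 to 0.98, on 8 of 8 spots. For all probes the median of this difference was 0.05, and the share of them that were higher was not counted. The 2 spots of a probe share sequence, sample and scaling, so 8 of 8 spots are not 8 separate results. None of the 4 reached 2-fold, which 5.16% of probes did in either direction. After quantile normalization the 4 differences were 0.49 to 0.81. PFOA titled 0.1 was also the array with the largest SD between duplicate spots and the second lowest 75th percentile, and their part in these values was not tested.

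At 2-fold, with 1 array on each side and no test, AQP5-1 was 2.16-fold lower on PFOA titled 1 than in methanol. Of all probes 1.23% were past 2-fold in this pair and 0.544% in the lower direction. The AQP5-1 difference came mostly from spot 2, at -1.83 against -0.39 for spot 1, and AQP5-2 differed by -0.03. MUC1-2 was 2.02-fold higher on PFOA titled 0.1 than in methanol, where 7.05% of probes were past 2-fold and 4.3% in the higher direction. It lay just past 2-fold, at 1.01 (log2), and was 0.98 after quantile normalization and 0.72 under normexp background correction. MUC1-1 was 1.93-fold higher in the same pair, and all 4 MUC1 spots were higher, by 0.76 to 1.22.

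MUC1 on PFOA titled 0.1 was the PFOA difference that both probes and all spots of a gene shared. With the PFOA titled 1 array left out, limma gave 0.95 ± 0.37 for MUC1-1 (adjusted p = 0.382) and 1.01 ± 0.31 for MUC1-2 (adjusted p = 0.322). With PFOA titled 0.1 left out they were 0.07 and 0.10, both with adjusted p = 1.00, so the PFOA mean of MUC1 rested on 1 array. Against medium, MUC1-1 was 1.20-fold and MUC1-2 1.61-fold higher on PFOA titled 0.1.

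BPA was compared with ethanol in the same way, with 3 arrays against 1, and 0 of the 6 probes passed in limma (adjusted p 0.941 to 0.971). Over all probes 1 passed, or 0.00515%, and 3.09% had an unadjusted p under 0.05, which none of the 6 had. The 6 differences had a median of 0.23, with 4 higher and 2 lower, against 0.01 and 51.4% higher over all probes.

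CC10-2 had the largest of these differences: -5.48 ± 0.31 (SD, n = 3) in BPA against -6.06 in ethanol, a difference of 0.57 ± 0.37 (SE, 95% interval -0.29 to 1.43). The levels of CC10-2 were above ethanol by 0.31 on BPA 0.1, 0.49 on BPA 1 and 0.91 on BPA 100, and on all 6 spots. CC10-1, not well above background in ethanol, had a mean of -5.44 ± 0.81 in BPA against a reading of -5.86, or 1.34-fold higher than that reading. The difference was 0.42 ± 0.55 (95% interval -0.86 to 1.69, adjusted p = 0.941 in limma). It was 0.03 without BPA 0.1 and 0.84 without BPA 1, so its size rested on single arrays. Where a fold is given below as at least a value, 1 array was not well above background. The brighter level was then set against the higher of the dim probe's own reading and the lowest spot well above background on that array. Such a bound takes no account of the spread between spots or arrays, so a smaller fold is not excluded.

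The AQP5 probes differed from ethanol by 0.16 ± 0.40 (AQP5-1, -0.78 to 1.10) and -0.18 ± 0.32 (AQP5-2, -0.91 to 0.56). MUC1-1 differed by -0.11 ± 0.39 (-1.02 to 0.80) and MUC1-2 by 0.31 ± 0.37 (-0.54 to 1.16). MUC1-2 was above ethanol on all 3 BPA arrays and all 6 spots, by 0.27, 0.20 and 0.46, whereas MUC1-1 was below it on BPA 0.1 and BPA 1 and above it on BPA 100. These differences, like those of CC10-2, share 1 ethanol array. How many of all probes kept 1 sign on the 3 BPA arrays was not counted. In this fit, with 1 ethanol array, the interval of AQP5-2 excluded a 2-fold change in either direction, which of the 6 probes no other interval did. With spot 2 of AQP5-2 fitted alone the interval was -1.09 to 0.36, which reaches past 2-fold.

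The change per 10-fold step of the titled BPA dose was tested over the 3 BPA arrays. It was 0.17 ± 0.16 for AQP5-1, -0.01 ± 0.13 for AQP5-2, 0.15 ± 0.16 for MUC1-1, 0.07 ± 0.15 for MUC1-2, -0.13 ± 0.23 for CC10-1 and 0.20 ± 0.13 for CC10-2. In limma 0 of 6 passed, with adjusted p of 0.685 to 0.988. The percentage of all probes that passed was 0, and 7.46% had an unadjusted p under 0.05. Fitted on slide 2 alone, with 1 residual degree of freedom, 91 probes passed with a rising and 54 with a falling level, and so they did without either PFOA array. Of the 6 members 0 passed there, and CC10-2 had an unadjusted p of 0.038 and an adjusted p of 0.218 in limma. Under normexp 5 probes of the array passed, none of them a member. The levels of AQP5-1 and CC10-2 stood in the order of the titled dose. How many of all probes did so over these 3 arrays was not counted, so no dose trend is read from it. Both were highest on BPA 100, the array with the lowest 75th percentile (387), whose part in this was not tested.

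At 2-fold against ethanol, the single difference was CC10-1 on BPA 0.1, at least 2.28-fold higher, where 0.857% of probes were past 2-fold and 0.375% in the higher direction. It came from spot 1, which was higher by 2.11, while spot 2 was higher by 0.27. CC10-1 was 3.07-fold lower on BPA 1 than on BPA 0.1, where 1.04% of probes were past 2-fold. Its spots differed by -2.82 and -0.41 there, and spot 1 on BPA 1, at a signal of 5.42, was not well above background. No probe of the 4 genes was past 2-fold against ethanol on BPA 1 or BPA 100, where 1.98% and 4.34% of probes were, and CC10-2 on BPA 100 came nearest, at 1.88-fold. None was past 2-fold on BPA 100 against BPA 0.1 or against BPA 1 either, where 4.08% and 1.8% of probes were.

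**Figure D3:**
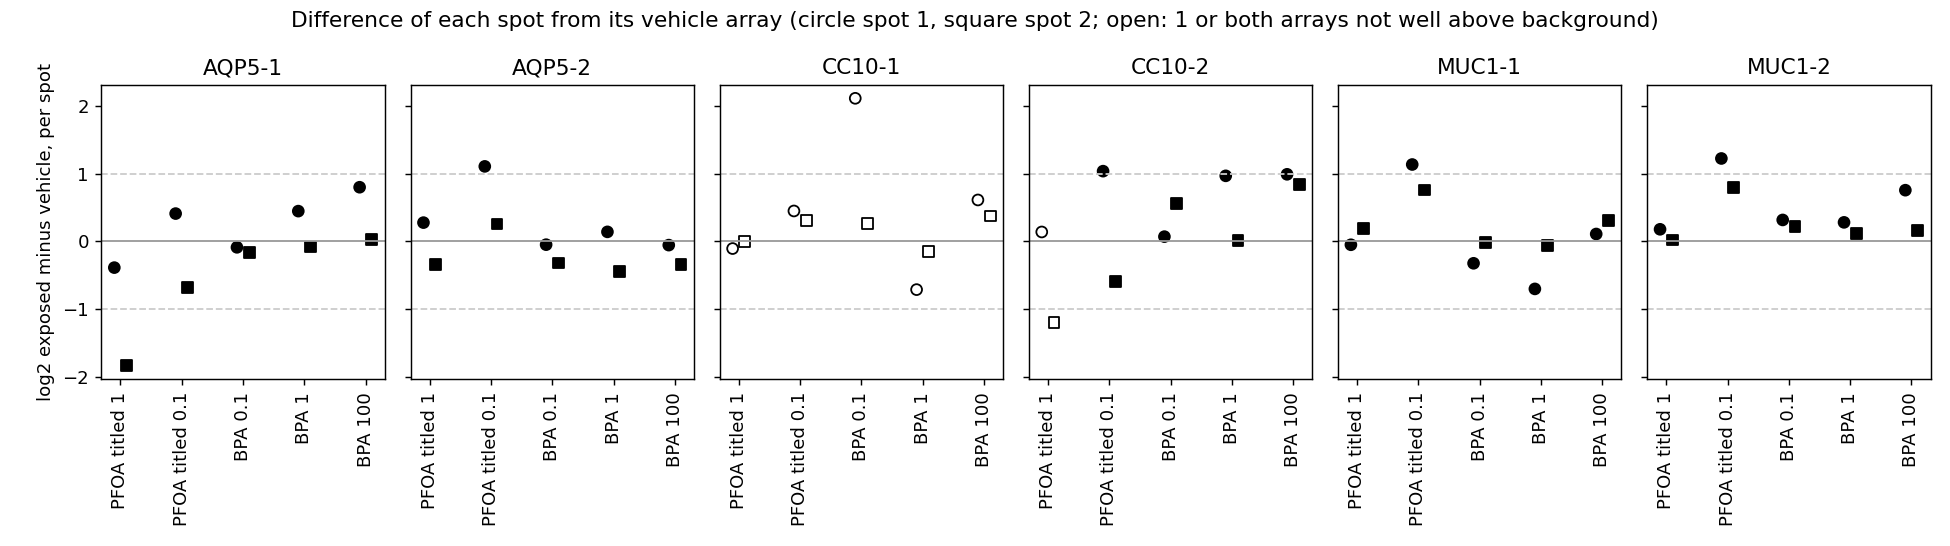
Difference of each spot from the same spot on the vehicle array (log2, exposed minus vehicle; circle spot 1, square spot 2), 1 panel per probe, with dashed lines at 2-fold and open points where 1 or both arrays were not well above background. The 4 MUC1 spots are high on PFOA titled 0.1 (0.76 to 1.22), spot 2 of AQP5-1 is lowest on PFOA titled 1 (-1.83) and spot 1 of CC10-1 highest on BPA 0.1 (2.11).

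Over the 24 comparisons of a probe on an exposed array with its vehicle in which both arrays were well above background, the 2 spots had the same sign in 18. A 2-fold difference occurred in 2 of the 24, and both of these were on the PFOA arrays described above. On BPA 0.1 and BPA 100 the spots had the same sign in 5 of 5 probes, and on PFOA titled 1 in 2 of 4. The share of the same sign over all probes was not counted. Spots of a probe share sequence, sample and scaling, so these counts are not a result about the 4 genes.

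The compounds were set against each other by the difference of their effects, at doses that were not matched. It was 0.78 ± 0.59 for AQP5-1, -0.50 ± 0.46 for AQP5-2, -0.62 ± 0.57 for MUC1-1, -0.25 ± 0.53 for MUC1-2, 0.26 ± 0.80 for CC10-1 and 0.73 ± 0.54 for CC10-2. None passed in limma (adjusted p 0.878 to 0.972), as did 0% of all probes, of which 5.71% had an unadjusted p under 0.05. The AQP5 probes gave opposite signs. CC10-1 was not well above background in methanol, in ethanol or on either PFOA array, so its value rests largely on readings short of that flag.

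**Figure D4:**
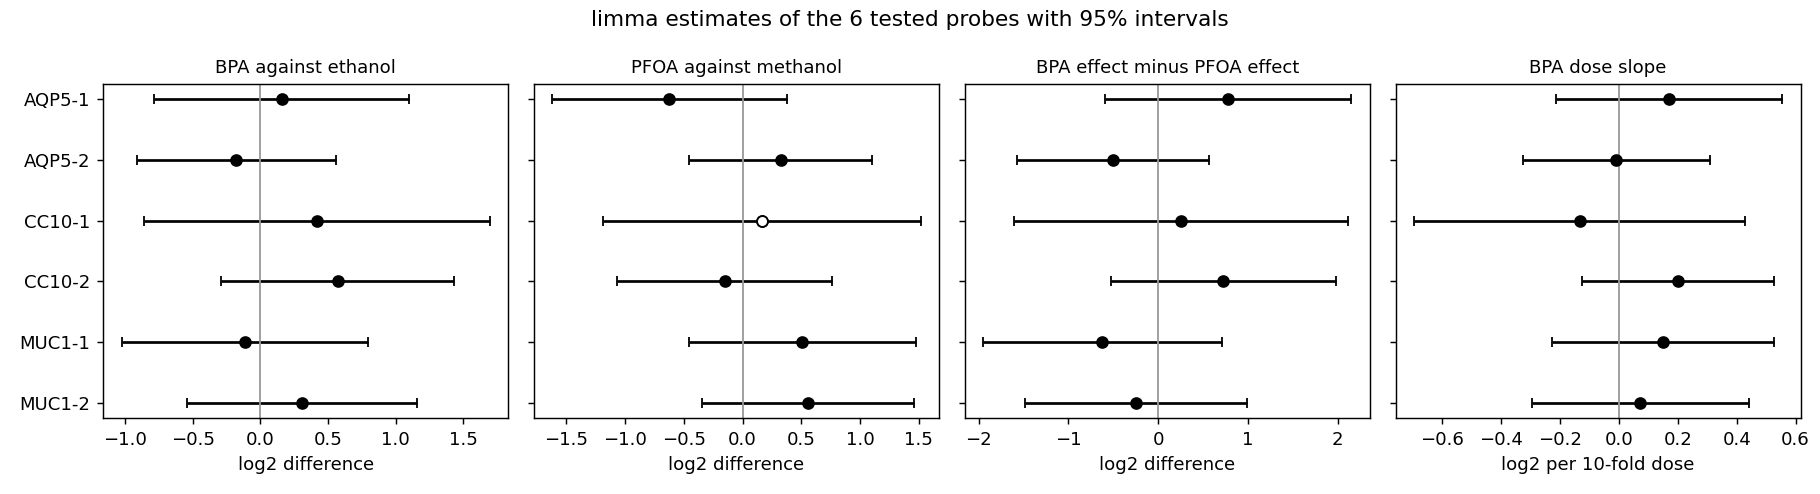
limma estimates of the 6 tested probes (points) with 95% intervals (bars) for BPA against ethanol, PFOA against methanol, the difference of the effects (log2 differences) and the slope per 10-fold BPA dose; the open point is CC10-1, whose readings in that comparison were all short of well above background. Every interval crosses 0, as for CC10-2 in BPA (-0.29 to 1.43).

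The vehicles and the exposed arrays were also set against medium, with 1 array on each side. In methanol CC10-1 was at least 2.34-fold lower than in medium, on both spots, where 2.06% of probes were past 2-fold and 1.81% in the lower direction. Both MUC1 probes and AQP5-2 were also lower in methanol, by 1.61-fold for MUC1-1, 1.25-fold for MUC1-2 and 1.66-fold for AQP5-2, while AQP5-1 was 1.06-fold and CC10-2 1.33-fold higher. In ethanol none reached 2-fold (1.9% of probes did): AQP5-1 was 1.35-fold and AQP5-2 1.29-fold higher, and MUC1-2 1.41-fold lower while MUC1-1 was 1.31-fold higher. Ethanol and medium lay on different slides, and vehicle and slide cannot be told apart there.

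On PFOA titled 1, AQP5-1 was 2.04-fold and CC10-1 at least 2.09-fold lower than in medium, where 1.55% of probes were past 2-fold. With median scaling these differences were -0.96 and -0.99 (log2) and after quantile normalization -0.83 and -0.72, short of 2-fold. AQP5-2, MUC1-1 and MUC1-2 were lower by 1.70-fold, 1.53-fold and 1.17-fold. All 4 measured probes and all 8 of their spots were thus below medium, against a median over all probes of -0.06. The share of all probes below medium on this array was not counted. On BPA 1, CC10-1 was 2.03-fold lower than in medium (0.918% of probes past 2-fold), but -0.99 (log2) after quantile normalization, and on BPA 100 CC10-2 was 2.06-fold higher, by 1.04 and 1.05 on its spots (2.72% of probes). None of the differences past 2-fold between single arrays was so under normexp, whose offset of 50 shrinks the folds of dim probes. No member reached 2-fold against medium on PFOA titled 0.1 or BPA 0.1, where 4.89% and 1.45% of probes did.

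The agreement of the probes of a gene over the 8 arrays was measured as a correlation of their levels, which share the array, its scaling and its slide. For AQP5, Pearson's r was 0.759 (exact permutation p = 0.021, 0.062 after adjustment over 3 genes) and Spearman's rho 0.762 (exact permutation p = 0.037). Without PFOA titled 1 and BPA 100, the arrays farthest from the median of AQP5-1, r was 0.574. Of the 28 pairs of arrays, both AQP5 probes gave the same order in 22. These were all 16 pairs from different slides and 6 of the 12 pairs within a slide. After quantile normalization they were 16 of 16 and 4 of 12. Unscaled and under normexp the order was the same in 9 of 12 pairs within a slide, against 13 and 15 of 16 between slides, so the split between slides depended on the scaling. With 4 arrays per slide, a correlation within a slide was not computed.

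For MUC1 r was 0.247 (exact permutation p = 0.566, adjusted 0.646) and rho 0.143 (exact permutation p = 0.752), and without methanol and PFOA titled 1 r was 0.004. The MUC1 probes gave the same order in 10 of 12 pairs within a slide and in 6 of 16 between slides. For CC10 r was 0.191 (exact permutation p = 0.646, adjusted 0.646), rho was 0.238 (exact permutation p = 0.582), and r was 0.641 without BPA 0.1 and medium. Its probes gave the same order in 7 of 12 pairs within a slide and 10 of 16 between slides, with 4 of 8 arrays not well above background in CC10-1.

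Against their vehicle, both probes of a gene had the same sign on 2 of 5 exposed arrays for AQP5, 3 of 5 for MUC1 and 4 of 5 for CC10. The sets of 5 for CC10 include readings that were not well above background. How often other pairs of probes had the same sign was not counted.

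**Figure D5:**
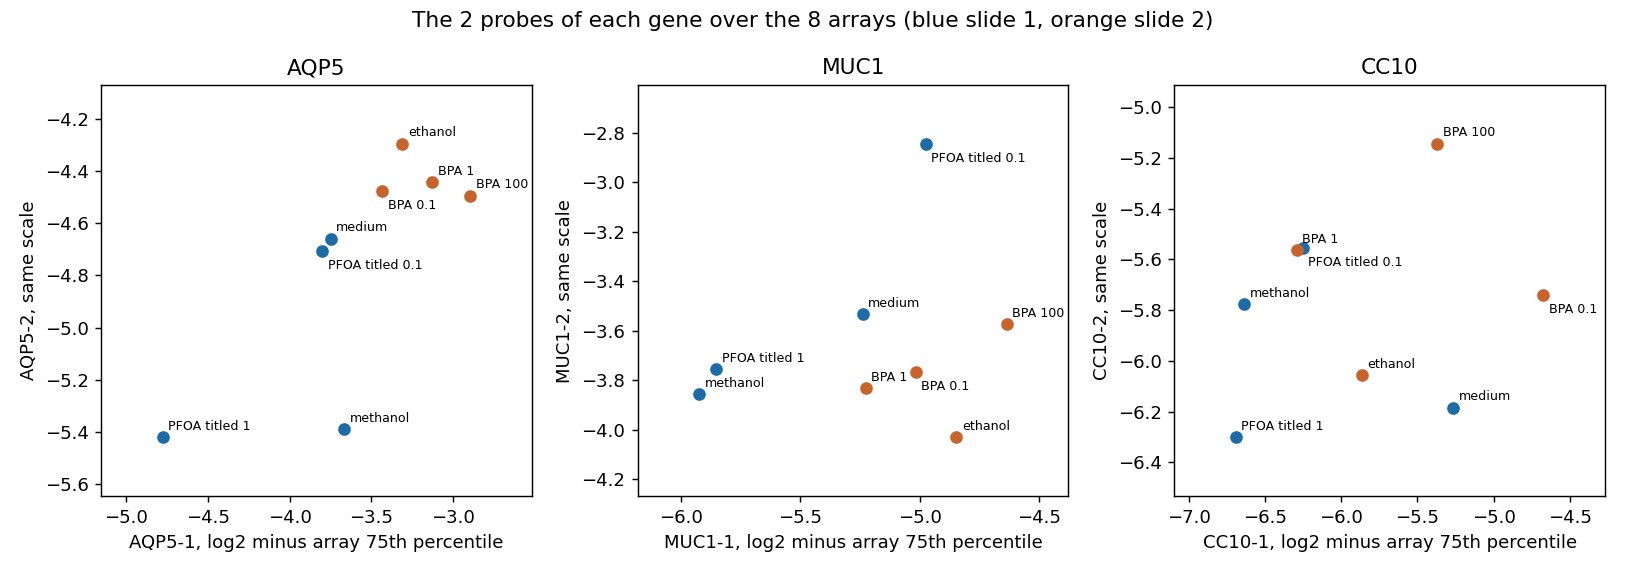
Level of the second probe against the first probe of AQP5, MUC1 and CC10 (log2 minus the array's 75th percentile), 1 point per array, blue slide 1 and orange slide 2. In AQP5 the orange points lie above and to the right of the blue ones (r 0.759), while MUC1 (r 0.247) and CC10 (r 0.191) are scattered.

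The slides were therefore compared directly, a comparison added after the values were seen. AQP5-1 was at -4.00 ± 0.52 (SD, n = 4) on slide 1 and -3.19 ± 0.23 (n = 4) on slide 2, and AQP5-2 at -5.04 ± 0.42 and -4.43 ± 0.09, and for both the slides did not overlap. Of all probes tested 1.74% were higher on slide 2 without overlap and 1.16% lower. The slides of both AQP5 probes were apart also with median scaling and quantile normalization, but overlapped under normexp background correction. In limma the difference was 0.81 ± 0.25 for AQP5-1 (adjusted p = 0.730) and 0.62 ± 0.20 for AQP5-2 (adjusted p = 0.784). No probe of the array passed there, with 925 of 19434 at an unadjusted p under 0.05.

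In AQP5-1 the difference between slides was in spot 1, by 1.47, and not in spot 2, by 0.14, whereas in AQP5-2 spot 1 differed by 0.50 and spot 2 by 0.73. MUC1-1 was higher by 0.57 and MUC1-2 lower by 0.30 on slide 2, with slides that overlapped. Without PFOA titled 0.1 and BPA 100, the slides of both AQP5 probes and of MUC1-1 did not overlap, where 6.74% of probes were higher and 4.56% lower without overlap. Slide 2 holds the ethanol and BPA cultures and slide 1 the others, so slide and culture condition cannot be told apart.

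The probes whose pattern over the 8 arrays was most like that of a member were named for contigs, with a single exception. For AQP5-1 they were Contig-c19228-1 (r = 0.962) and Contig-c13483-1 (r = 0.951), and for AQP5-2 Contig-c21357-1 (r = 0.974) and Contig-c23912-1 (r = 0.973), among 17079 other probes. For MUC1-1 they were Contig-c4290-1 (r = 0.974) and Contig-c22888-1 (r = 0.970), and for MUC1-2 Contig-c21836-1 (r = 0.982) and a probe named for a single read (r = 0.964). An r above 0.9 was found for 19, 59, 67 and 87 probes in that order of members, over only 8 arrays. In that ranking AQP5-2 held place 271 of 17079 for AQP5-1, or 1.58% of probes had a higher r, and MUC1-2 place 5720 for MUC1-1, or 33.5%.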

How the data were processed

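RNA of 8 slices was hybridised to 8 one-colour arrays. Per the file headers, Agilent Feature Extraction 10.7.3.1 read the spots, with background subtraction and detrending within the array. The deposited signal is its linear intensity, with no step that aligns arrays to each other. Control and outlier spots were left out. From log2 signals the 75th percentile of the array was subtracted, and a probe is the mean of its spots. A probe was tested where at least 1 in 2 of its spots was well above background on at least 2 arrays (19434 probes, 6 of the 7 members, without PDPN-1). limma 3.58.1 in R 4.3.3 fitted medium, methanol, PFOA, ethanol and BPA with 3 residual degrees of freedom (2 for the dose slope), so a vehicle with 1 array is assumed to vary like the others. The threshold was an adjusted p of 0.05. The fit was tested on simulated data. The p-value of a spot against background was not used here, so detection rests on the scanner's flags.

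Every member probe is named whatever its value, and for each probe well above background on all arrays the 2 probes of highest r. The members and lists were chosen with earlier results of these data known. Alternatives were median scaling, quantile normalization, normexp (offset 50, on the median signal), other filters, the deposited value table (the same intensity on another scale), slide as a random block or fitted alone, and each exposed array left out. AQP5, MUC1 and PDPN matched 1 gene each in the RefSeq gene table of assembly mTurTru1.mat.Y and CC10 matched 0 under that name. Its symbol SCGB1A1 was not searched for there. The build behind the array is not given in the sources used here, so no coordinates or sequences are printed.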

Additional observations from a re-analysis of the deposited data

How the results depend on the processing

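No member probe passed the adjusted p threshold in any of the 4 limma comparisons under any alternative run, and without each PFOA or BPA array in turn the count stayed at 0 (smallest adjusted p over all 370 recomputed differences 0.218). Of these 370, 344 kept their direction and 26 reversed, and 14 of the 24 differences of a probe in a comparison reversed at least once while 10 never did. The causes of the reversals were not tested. Many of the 370 repeat the main estimate by design. Another filter, a fit within the slide or leaving out an array of the other compound does not change a difference from vehicle. The 344 are therefore no measure of how stable the differences are. Slide as a random block gave the same values, because the design already separates the slides. Normexp moved the median difference of all probes to 0.09 for BPA, 0.18 for PFOA, -0.14 for their difference and 0.09 for the slope. Under it AQP5-2 (0.042) and MUC1-1 (0.096) reversed in BPA against ethanol, AQP5-1 (0.014) and CC10-2 (0.39) in PFOA against methanol, CC10-1 (-0.015) and CC10-2 (-0.23) in the difference of the effects, and AQP5-2 (0.16) and CC10-1 (0.15) in the BPA dose slope. Under normexp 2-fold differences between arrays fell from 9 to 0, against 7 with median scaling and 5 with quantile normalization. The normexp offset of 50 is near or above the median signals of the tested probes (8.57 to 51.6). It shrinks the folds of such dim probes, so the fall to 0 cannot show whether the differences hold. The correlation of the probes of a gene rose under normexp to 0.823 for AQP5, 0.886 for MUC1 and 0.864 for CC10. Without BPA 100 and PFOA titled 0.1 these values were 0.577, 0.565 and 0.266. Under normexp 9.62% of probes had a higher r with AQP5-1 than AQP5-2 had. For MUC1-1 and MUC1-2 that share was 18.1%, so the rise was not particular to probes of the same gene. It was -0.21 for MUC1 with no scaling and -0.034 for CC10 after quantile normalization.

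With each spot fitted alone, an alternative chosen after seeing the data, BPA against ethanol reversed for AQP5-1 on spot 2 (-0.070), AQP5-2 on spot 1 (0.013) and MUC1-1 on spot 2 (0.078). PFOA against methanol reversed for AQP5-1 on spot 1 (0.012), AQP5-2 on spot 2 (-0.042) and CC10-2 on spot 1 (0.59), and the slope for CC10-1 (0.068) and MUC1-2 (-0.012) on spot 2. Leaving out each exposed array gave -0.27 to 0.021 for MUC1-1 in BPA against ethanol. In PFOA against methanol it gave -0.032 to 0.68 for AQP5-2, -0.53 to 0.22 for CC10-2 and -0.056 to 0.38 for CC10-1, which was not well above background there. The difference of the effects ranged from -0.13 to 0.68 for CC10-1 and from -0.70 to 0.21 for MUC1-2. The slope ranged from -0.025 to 0.034 for AQP5-2, -1.62 to 0.46 for CC10-1, -0.21 to 0.30 for MUC1-1 and -0.068 to 0.13 for MUC1-2. Detection on 43 pairs of probe and array became 41 when every spot had to be well above background and 54 with the weaker flag. No paired analysis was possible because each condition has 1 array, so that any pair of conditions shares at most 1 replicate number.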
